A study of Mus musculus with 12 samples.

Results

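The 8 genes described here are those of a chosen set that mediate how muscle precursors attach to each other, fuse and mend their membrane: Cdh15, Cdh2, Ncam1, Cdon, Tmem8c, Cav3, Dysf and Myof. All 8 symbols were present in the mm9 annotation, out of 22230 protein-coding genes on chromosomes 1 to 19 and X, and each was read within 1 kb either side of its transcription start site (TSS) and over its gene body, which begins 1 kb downstream of that TSS. The data are 12 ChIP-seq libraries, 1 for each of 6 histone marks (H3K4me3, H3K4me2, H3K4me1, H3K27ac, H3K27me3 and H3K36me3) in C2C12 myoblasts and in C2C12 myotubes. C2C12 is an established mouse myogenic line, labelled here as strain C3H and as passages 15 to 18 in both groups. The myoblasts were taken near confluence in 10% serum, and the myotubes about 5 days after serum was withdrawn, when a light trypsin step had separated them from cells that had not fused. No genotype change or drug distinguished the groups, all cells come from 1 line, and how many unfused cells stayed with the myotubes was not measured. Each mark was sequenced once per cell type and no input library was used here, so no p-value is given, and a ratio compares 2 libraries rather than 2 conditions. In bulk chromatin of this kind, fewer cells that carry a mark and less of the mark per cell cannot be told apart.

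In mm9 the adhesion genes lie at chr8:125371866-125391297 (Cdh15, plus strand), chr18:16747386-16967755 (Cdh2, minus strand), chr9:49310257-49607027 (Ncam1, minus strand) and chr9:35228713-35315236 (Cdon, plus strand). Tmem8c lies at chr2:26917156-26927699 on the minus strand and Cav3 at chr6:112409495-112422865 on the plus strand. Dysf lies at chr6:83958584-84161054 on the plus strand and Myof at chr19:37973526-38118067 on the minus strand. The genes are 10.5 kb (Tmem8c) to 297 kb (Ncam1) long. Cdh15 and Ncam1 overlap annotated protein-coding genes on the plus strand, Gm20388 for the former and Gm11149 with Gm17616 for the latter. Cdh2 overlaps the processed transcript Gm15485, Dysf the processed transcript Gm15475, and Cdon a 5S_rRNA and a U1 gene. ChIP reads cannot be divided between overlapping genes.

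Skeletal muscle fibres form when mononucleated myoblasts align, adhere through cadherins and immunoglobulin-like proteins, and fuse into a syncytium, after which the fibre has to reseal tears in its membrane. H3K4me3, together with H3K27ac, marks active promoters, H3K4me1 with H3K4me2 marks enhancers and the flanks of promoters, H3K36me3 accumulates over transcribed gene bodies, and H3K27me3 is laid down by Polycomb over silenced genes. Cdh15 encodes M-cadherin and Cdh2 N-cadherin, the calcium-dependent adhesion molecules of muscle precursors. Ncam1 encodes the neural cell adhesion molecule and Cdon a promyogenic co-receptor that associates with cadherins. Tmem8c encodes myomaker, the muscle-specific membrane protein required for fusion. Cav3 encodes caveolin-3, the muscle caveolin, Dysf encodes dysferlin, which patches torn membrane, and Myof encodes myoferlin, a relative of dysferlin known from fusing myoblasts.

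The promoters of Tmem8c, Cav3 and Dysf are printed because they had gained H3K4me3 in the myotube library, and that of Cdh15 because it carried the mark in both. Each is the run of 250 bases before the TSS in mm9, on the strand of the gene, with no annotated exon in it. Capitals mark the E-box CAGCTG in Tmem8c and Cav3 and a MEF2-type match in Cdh15.
Tmem8c, chr2:26927700-26927949, minus strand: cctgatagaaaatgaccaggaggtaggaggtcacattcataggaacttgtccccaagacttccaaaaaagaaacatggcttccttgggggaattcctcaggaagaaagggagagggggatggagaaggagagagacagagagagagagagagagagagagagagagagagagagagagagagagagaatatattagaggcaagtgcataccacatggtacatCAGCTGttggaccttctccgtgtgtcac
Cav3, chr6:112409245-112409494, plus strand: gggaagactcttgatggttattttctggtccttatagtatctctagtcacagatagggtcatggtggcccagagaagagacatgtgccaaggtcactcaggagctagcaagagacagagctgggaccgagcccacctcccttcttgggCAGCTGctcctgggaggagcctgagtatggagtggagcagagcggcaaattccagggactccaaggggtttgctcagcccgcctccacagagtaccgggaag
Dysf, chr6:83969129-83969378, plus strand: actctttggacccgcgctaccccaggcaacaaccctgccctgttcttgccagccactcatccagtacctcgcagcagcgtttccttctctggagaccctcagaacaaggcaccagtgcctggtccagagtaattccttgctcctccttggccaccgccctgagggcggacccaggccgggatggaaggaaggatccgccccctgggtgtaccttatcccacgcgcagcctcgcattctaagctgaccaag
Cdh15, chr8:125371616-125371865, plus strand: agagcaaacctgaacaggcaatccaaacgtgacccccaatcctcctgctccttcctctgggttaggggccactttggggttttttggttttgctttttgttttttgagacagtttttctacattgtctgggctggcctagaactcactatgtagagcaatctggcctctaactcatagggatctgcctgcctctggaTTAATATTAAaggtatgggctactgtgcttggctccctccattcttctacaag

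The windows were searched on both strands for the E-boxes CAGCTG and CAGGTG, the MCAT element CATTCC and the MEF2 motif, none of which overlapped another in the runs shown. CAGCTG ended 23 bases before the TSS of Tmem8c and 97 bases before that of Cav3, and 11.9% of 22226 promoters held it in the same window. The MEF2 match ended 44 bases before the Cdh15 TSS, where 2.70% of promoters held one. CAGGTG (16.5% of promoters) and CATTCC (11.0%) occurred in none of the 8 windows, and the windows of Dysf, Myof, Ncam1, Cdon and Cdh2 held none of the 4 motifs. The promoters also differed in base composition. Within 500 bp of the TSS the observed-to-expected CpG ratio was 0.130 at Tmem8c, 0.261 at Cdh15, 0.327 at Cav3 and 0.465 at Dysf, all below the median of 0.574 over all promoters. It was 0.615 at Myof, 0.732 at Ncam1, 0.865 at Cdon and 0.869 at Cdh2.

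The elements printed next are the stretches outside the promoters that gained most H3K27ac among the leading distal elements of the 8 genes. They are 300 bases around the middle of the element, on the plus strand of mm9, with the same motifs in capitals.
Tmem8c upstream element, chr2:26931001-26931300: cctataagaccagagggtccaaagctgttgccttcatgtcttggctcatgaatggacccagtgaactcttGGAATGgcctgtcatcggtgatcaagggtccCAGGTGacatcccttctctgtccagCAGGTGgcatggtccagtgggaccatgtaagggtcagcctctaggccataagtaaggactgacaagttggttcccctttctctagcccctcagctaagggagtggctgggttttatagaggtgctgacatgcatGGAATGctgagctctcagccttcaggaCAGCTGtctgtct
Dysf intronic element, chr6:83972098-83972397: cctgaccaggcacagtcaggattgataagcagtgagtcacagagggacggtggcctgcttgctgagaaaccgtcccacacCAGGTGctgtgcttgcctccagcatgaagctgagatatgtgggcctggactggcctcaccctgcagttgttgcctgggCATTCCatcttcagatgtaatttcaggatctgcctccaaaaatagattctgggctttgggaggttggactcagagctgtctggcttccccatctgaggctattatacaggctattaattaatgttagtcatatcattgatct

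The Tmem8c element held 1 CAGCTG, 2 CAGGTG and 2 CATTCC matches, and the Dysf element 1 CAGGTG and 1 CATTCC. Among 42600 distal H3K27ac elements of the same length, 23.6% held CAGCTG, 21.6% CAGGTG and 19.2% CATTCC, so each single match is common. The coordinates put the Tmem8c element 3.45 kb upstream of its TSS and the Dysf element 2.87 kb downstream of its TSS.

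Myoblast libraries held 1858771 to 7033100 reads and myotube libraries 3298694 to 6271899, all of 34 bases. The shallowest was myoblast H3K27ac, in which 1 read in a TSS window equalled 0.688 times the genome mean, against 0.182 in the deepest. H3K36me3 was at least 2-fold higher in myotubes over 5 of 6 myotube markers (Myog, Ckm, Acta1, Tnnt3 and Mybph, not Chrna1). Of 4 myoblast markers (Myod1, Myf5, Pax7, Des) 0 were called higher and 0 lower, so these markers did not set the myoblast library apart. None of 4 markers of other mesenchymal fates or of the 3 tested of other lineages (Alb, Cd3e and Gata1, with too few reads over Neurod1) was higher. The 4 markers of other lineages had H3K4me3 at 0.461 to 1.38 times the mean in myoblasts and 0 to 0.775 in myotubes, with Gata1 at 0. Those of other mesenchymal fates (Pparg, Adipoq, Runx2 and Sp7) ranged from 1.84 to 61.3 times in myoblasts and 0.388 to 27.9 in myotubes. Runx2 was the highest of them in both, and Pparg was called lower for H3K36me3 (ratio 0.494). Levels are given as fold over the mean number of read midpoints per kb of genome in the same library, with exact 95% Poisson intervals that cover counting error only. The centred ratio is the myotube level over the myoblast level, with 1 read added to each count, divided by the median of this ratio over all genes. It was computed where both libraries together held at least 20 reads, and a gene is called higher or lower at 2-fold.

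In the myotube libraries the promoters of Tmem8c, Cav3 and Dysf carried more H3K4me3 and H3K27ac than in the myoblast libraries, and that of Myof more H3K27ac, whereas none of the 4 adhesion genes was called for H3K4me3 or H3K27ac at its TSS. H3K4me3 was above the genome mean (interval wholly above 1) at 6 of the 8 promoters in myoblasts and at all 8 in myotubes, against 54.2% and 53.9% of all promoters. Cav3 and Dysf were the promoters not above the mean in myoblasts. For Dysf this holds at the chosen start only, since its upstream promoter had 16 myoblast reads (7.38-fold). H3K4me3 was higher in myotubes at 3 of 8 promoters, Tmem8c, Cav3 and Dysf, and lower at 0, where 4.68% of 11385 promoters were called higher and 4.57% lower. H3K27ac was higher at 4 of 8, the same 3 genes and Myof, and lower at 0, against 14.5% and 13.0% of 10750 promoters. The median centred ratio of the 8 genes was 1.41 for H3K4me3 and 2.81 for H3K27ac, against 1 over all promoters by construction.

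H3K4me2 was called higher at Tmem8c, Cav3, Dysf and Myof and lower at 0 of 8, where 8.49% of 13258 promoters were higher and 9.06% lower. This split rested on the centring: scaled by total reads only it was 2 higher and 0 lower, and scaled by windows outside the peaks 1 higher and 3 lower. The median promoter ratio by total reads was 0.593 for H3K4me2 and 0.570 for H3K27ac, so centring raised every ratio of these marks. Under both of these scalings H3K27ac was higher at 4 promoters and lower at 1, Cdon. H3K4me1 was called higher at Cav3 and Ncam1 and lower at 0 of 7 tested promoters, against 12.9% and 13.3% of 11800.

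Over the gene bodies all 8 genes had enough reads in every mark. A body begins 1 kb past the TSS, so a promoter peak can run into it. Myotube H3K4me3 peaks covered 64.1% of the Tmem8c gene, 47.4% of Cav3 and 4.92% of the longer Dysf. Body and promoter calls of the short genes are therefore not independent. H3K4me3 over the body was higher in myotubes in Tmem8c, Cav3 and Dysf and lower in 0 of 8, against 6.41% and 4.28% of 13798 genes. H3K27ac was higher in Tmem8c, Cdh2, Cav3 and Dysf and lower in Cdh15, against 14.1% and 10.8% of 12695. H3K4me2 was higher in Tmem8c and Cav3 and lower in Cdh15, against 14.9% and 16.3% of 14867. H3K4me1 was higher in Ncam1, Cav3 and Dysf and lower in 0 of 8, against 11.5% and 10.7% of 15769. H3K27me3 was higher in Cdh15 and lower in 0 of 8, against 4.96% and 2.18% of 15631. Cdh15 was thus the only one of the 8 bodies with a called decrease in these 5 marks, and Cav3 the only one called higher in all 4 of the active marks. Dysf missed only H3K4me2, with a ratio of 1.897 near the limit. That ratio was 2.295 over the whole annotated gene and 2.24 by total reads only, where Dysf H3K4me3 was 1.988. The Cdh15 calls in H3K27ac and H3K27me3 lay near the limit and were lost over the whole annotated gene (ratios 0.614 and 1.85).

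**Figure D1:**
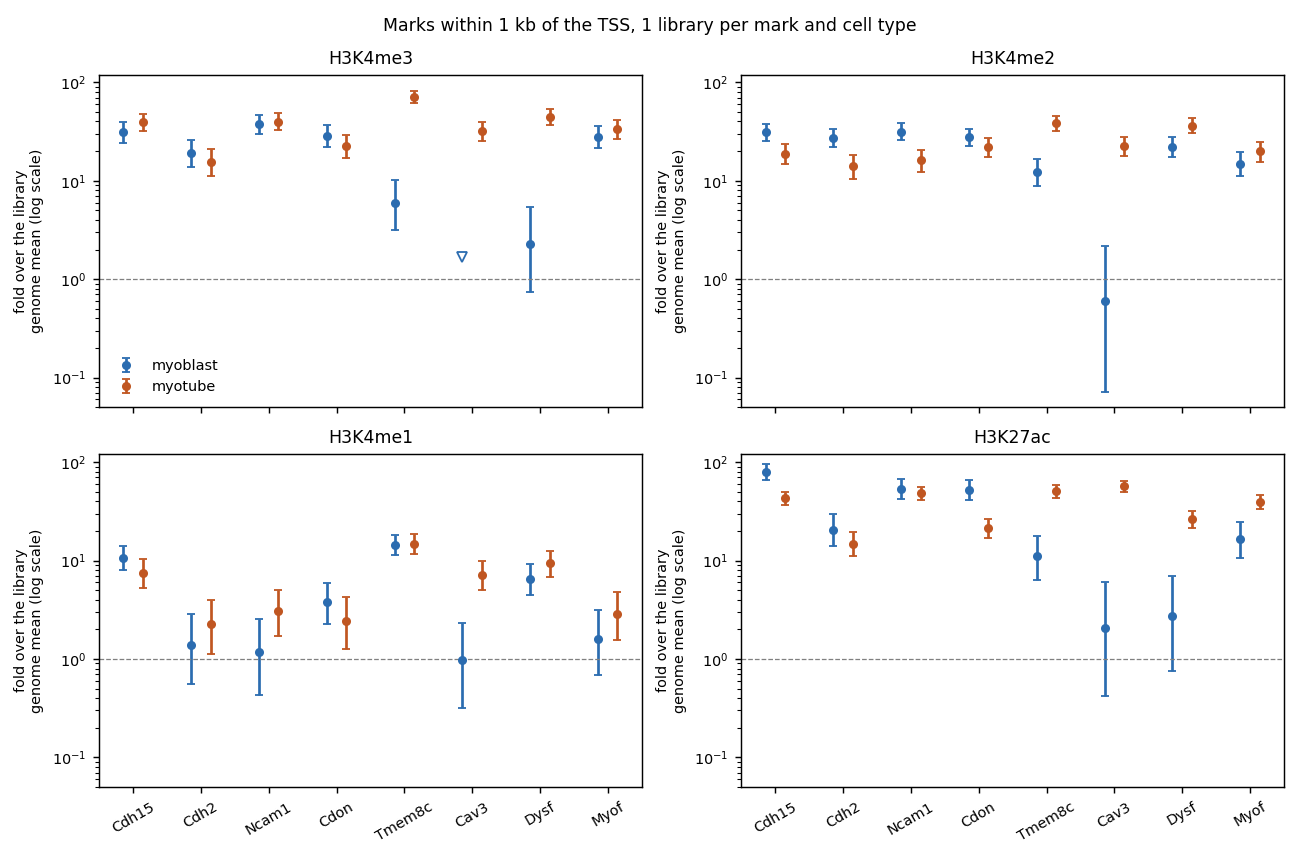
Level of 4 marks within 1 kb of the TSS of each gene (log axis, fold over the genome mean of the library), myoblasts in blue and myotubes in orange, 1 library each, with exact 95% Poisson intervals. The open triangle is the upper limit of a count of 0, at Cav3 in myoblast H3K4me3. Tmem8c, Cav3 and Dysf stand apart between the cell types, most clearly in H3K4me3, where the intervals of each of the 4 adhesion genes on the left overlap.

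**Figure D2:**
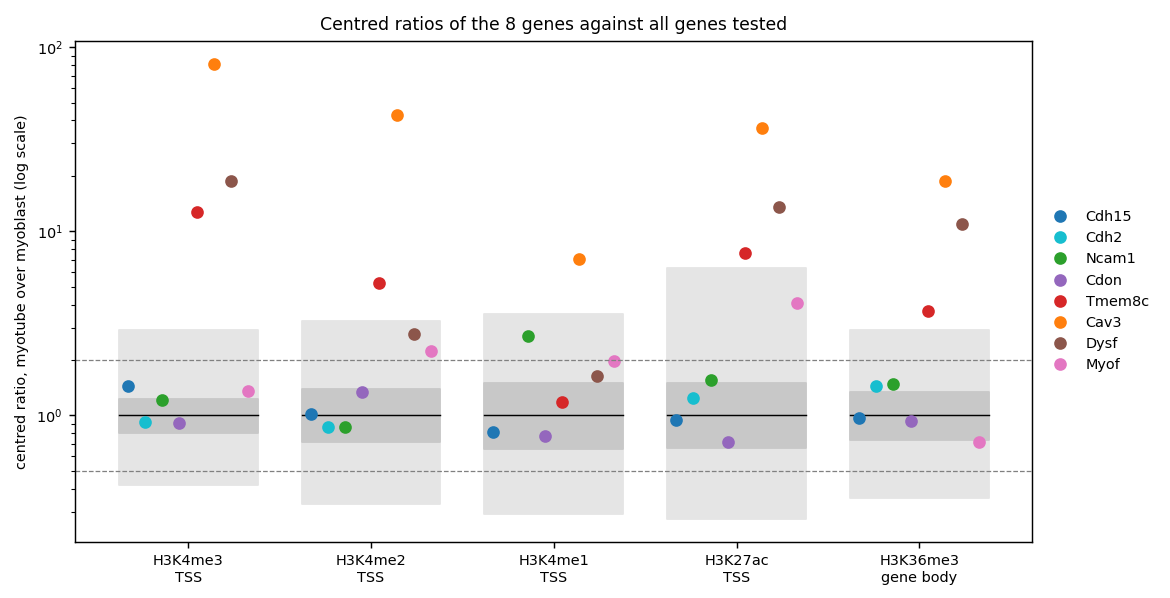
Centred ratio, myotube over myoblast, of each tested gene (coloured points, log axis) beside all genes tested. The dark grey bar spans the middle 50% and the light one the middle 95% of all genes, the line is their median and the dashed lines are the 2-fold limits. The Cav3 value for H3K4me3 rests on 0 myoblast reads and 1 added read. Cav3, Dysf and Tmem8c lie above the light bar for H3K4me3, H3K27ac and H3K36me3.

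Among the adhesion genes, Cdh15 had 68 H3K4me3 reads at its TSS in myoblasts (31.3-fold, 24.3 to 39.7) and 102 in myotubes (39.5-fold, 32.2 to 48.0). The centred ratio was 1.45 (1.06 to 2.01), under the limit for a call. Its TSS carried H3K27ac at 79.1-fold in myoblasts (115 reads), a level above that of 97.4% of promoters, and at 42.7-fold in myotubes (158 reads, ratio 0.945, 0.740 to 1.22). The M-cadherin promoter was therefore strongly marked in both cell types. Over its gene body H3K27ac was 36.1-fold in myoblasts and 16.5-fold in myotubes, a called decrease (ratio 0.489, 0.432 to 0.553). By total reads only, the H3K27ac ratio was 0.539 at the TSS and 0.457 over the body. Centring divided these by unlike medians, 0.570 and 0.934. Without centring, too, only the body passed the 2-fold limit, but the ratios at TSS and body then lay closer together. Body H3K4me2 went from 23.6-fold (730 reads) to 9.02-fold (309 reads, ratio 0.324, 0.282 to 0.370), likewise lower. Body H3K27me3 was higher, at 0.633-fold (32 reads) in myoblasts and 1.55-fold (56 reads) in myotubes (ratio 2.05, 1.32 to 3.31). The acetylation of Cdh15 formed a block of about 5 kb downstream of its TSS, and in myoblasts its highest bin of 500 bp began 3000 bp into the gene at 239 times the mean, against 124 times in the highest myotube bin, which began at 500 bp.

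Cdh2 had 42 H3K4me3 reads in myoblasts (19.4-fold) and 40 in myotubes (15.5-fold), a centred ratio of 0.926 (0.585 to 1.46). Its TSS H3K27ac was 20.6-fold (30 reads) and 14.9-fold (55 reads), a ratio of 1.25 (0.796 to 2.04). Neither mark differed beyond counting error at the N-cadherin promoter. Its body, 219 kb long, held H3K27ac at 1.28-fold in myoblasts and 3.02-fold in myotubes, a called increase (2.52, 2.18 to 2.94). The highest H3K4me3 bin lay 500 bp upstream of the TSS in myoblasts (35.0-fold) and 1000 bp downstream in myotubes (54.3-fold), partly outside the TSS window.

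Ncam1 had 82 H3K4me3 reads at its TSS in myoblasts (37.8-fold) and 103 in myotubes (39.9-fold), a ratio of 1.22 (0.904 to 1.65). TSS H3K27ac was 53.6-fold (78 reads) and 48.2-fold (178 reads), a ratio of 1.56 (1.20 to 2.08). The promoter was thus strongly marked in both libraries. The call for H3K4me1 rested on 6 reads in myoblasts and 15 in myotubes (ratio 2.70, 1.08 to 9.29), and it was lost within 2 kb either side, where the ratio was 1.63. Over the 296 kb body the same mark went from 1.89-fold (1413 reads) to 4.48-fold (3245 reads), higher in myotubes (2.34, 2.20 to 2.495). That interval covers counting error only. Scaled by windows outside the peaks the body ratio was 1.915, no longer a call.

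Cdon had 62 H3K4me3 reads in myoblasts (28.6-fold) and 58 in myotubes (22.5-fold), a ratio of 0.910 (0.624 to 1.32). TSS H3K27ac was 52.3-fold (76 reads) and 21.4-fold (79 reads), a ratio of 0.717 (0.517 to 0.995). None of the marks was called at the Cdon TSS. A downstream start, 2.46 kb from the first annotated one, had 28 H3K4me3 reads in myoblasts (12.9-fold) and 60 in myotubes (23.3-fold). At this downstream start the myotube level was the higher one. No ratio is given for it, and the exact intervals of both cell types overlapped there, as they did at the chosen TSS.

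At Tmem8c, the myomaker gene, 13 H3K4me3 reads lay within 1 kb of the TSS in myoblasts (5.99-fold, 3.19 to 10.2) and 183 in myotubes (71.0-fold, 61.0 to 82.0). The centred ratio was 12.8 (7.80 to 26.2), above that of 99.3% of promoters tested. H3K27ac went from 16 reads (11.0-fold) to 186 (50.3-fold), a ratio of 7.59 (4.81 to 14.3). H3K4me2 went from 41 reads (12.2-fold) to 143 (38.4-fold), a ratio of 5.22 (3.73 to 7.71). H3K4me1 did not follow, with 73 reads in each library (14.4-fold and 14.9-fold, ratio 1.18, 0.843 to 1.66). In myoblasts this H3K4me1 level was already above that of 98.3% of promoters, while H3K4me3 was above 51.0%. The myomaker promoter thus carried H3K4me1 and some H3K4me2 in the myoblast library and H3K4me3 mainly in the myotube library. A second annotated start, 4.31 kb downstream, showed H3K4me3 at 2.30-fold (5 reads) and 13.6-fold (35 reads).

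At Cav3 no H3K4me3 read lay within 1 kb of the TSS in myoblasts, where the exact interval reached 1.70-fold. In myotubes 83 reads did (32.2-fold, 25.6 to 39.9). The exact interval of the centred ratio began at 21.4, and 3 myoblast reads put in place of 0 gave a value of 26.9. H3K27ac went from 3 reads (2.06-fold, 0.425 to 6.03) to 210 (56.8-fold, 49.4 to 65.0), a ratio of 36.4 (16.3 to 236). H3K4me2 went from 2 reads to 83 (0.596-fold to 22.3-fold, ratio 42.7, 16.96 to 531) and H3K4me1 from 5 to 35 (0.987-fold to 7.13-fold, ratio 7.09, 3.23 to 27.1). The caveolin-3 promoter was the only one of the 8 at which the intervals of all 4 of these marks included the genome mean in myoblasts and all 4 were called higher in myotubes.

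At Dysf 5 H3K4me3 reads lay near the TSS in myoblasts (2.30-fold, 0.748 to 5.38) and 115 in myotubes (44.6-fold, 36.8 to 53.5), a ratio of 18.8 (9.30 to 70.1). H3K27ac went from 4 reads (2.75-fold) to 97 (26.2-fold), a ratio of 13.5 (6.33 to 62.6). H3K4me2 was already 22.0-fold in myoblasts (74 reads) and was 36.3-fold in myotubes (135 reads, ratio 2.76, 2.08 to 3.74). The dysferlin promoter, like that of Tmem8c, carried H3K4me2 and H3K4me1 (6.51-fold, 33 reads) in the myoblast library, where H3K4me3 was low. Dysf has another promoter 10.8 kb upstream, the 5' end of the annotated gene. There H3K4me3 was 7.38-fold in myoblasts (16 reads) and 23.7-fold in myotubes (61 reads), H3K27ac 5.50-fold (8 reads) and 41.9-fold (155 reads), and H3K4me2 33.9-fold (114 reads) and 23.4-fold (87 reads). With this upstream start in place of the chosen one, the H3K4me2 ratio of Dysf was 1.17, no longer a call. Both promoters gained H3K4me3 and H3K27ac, the downstream one from the lower H3K4me3 level.

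At Myof, by contrast, H3K4me3 was 28.1-fold in myoblasts (61 reads) and 33.3-fold in myotubes (86 reads), a ratio of 1.36 (0.975 to 1.93). H3K27ac went from 16.5-fold (24 reads) to 39.5-fold (146 reads), a called increase of 4.06 (2.71 to 6.76). H3K4me2 was 14.9-fold (50 reads) and 19.9-fold (74 reads), with a ratio of 2.24 (1.55 to 3.30) that was 1.33 when scaled by total reads only. The myoferlin promoter thus carried H3K4me3 in both libraries and was called for acetylation.

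**Figure D3:**
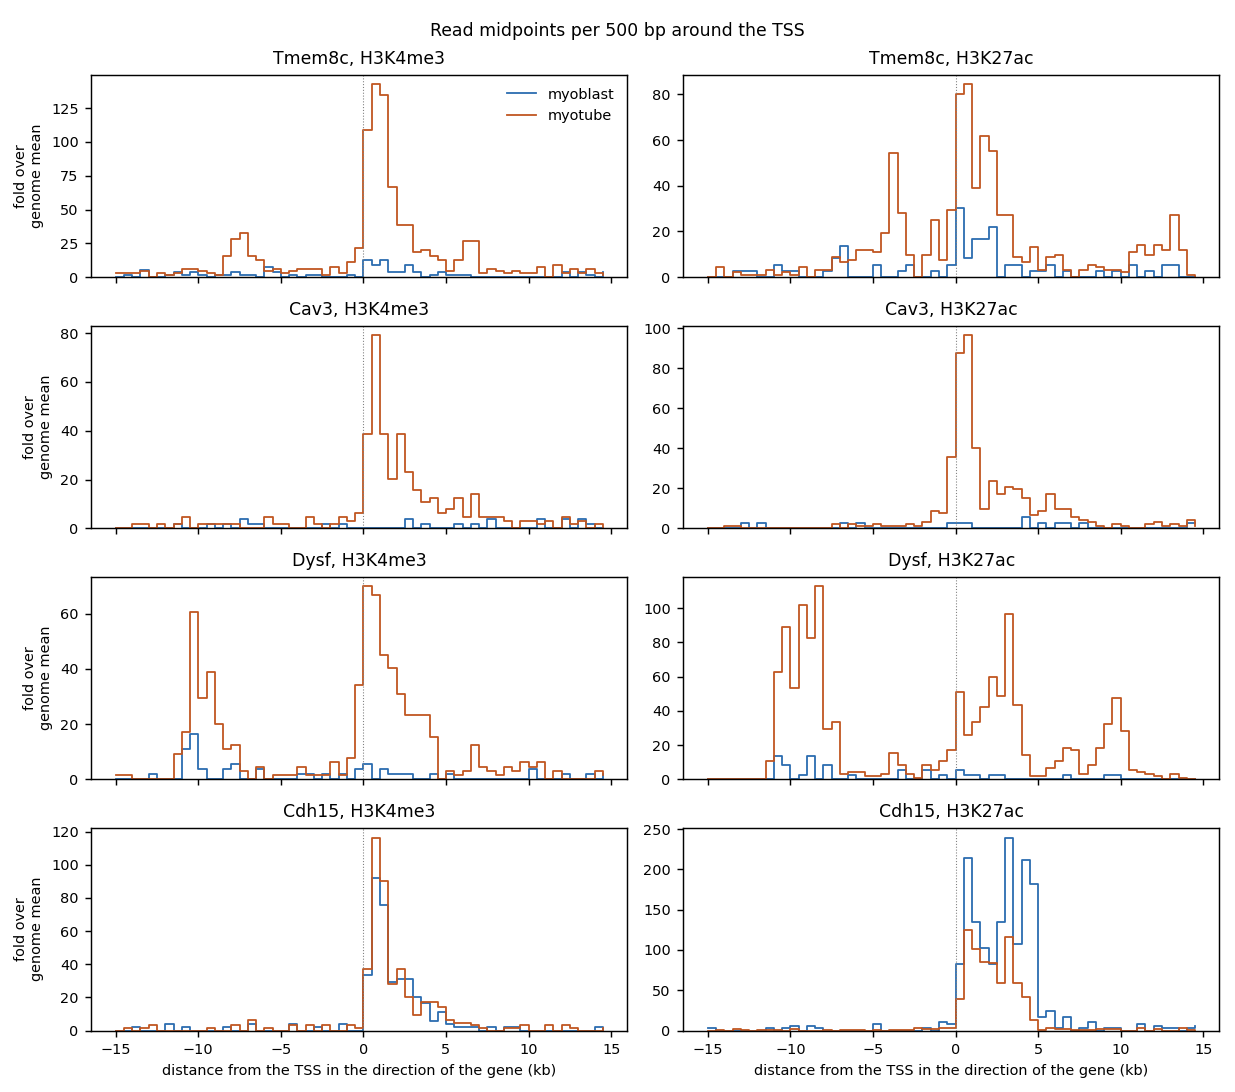
Read midpoints in bins of 500 bp within 15 kb of the TSS of Tmem8c, Cav3, Dysf and Cdh15 (rows) for H3K4me3 (left) and H3K27ac (right), as fold over the genome mean, myoblasts in blue and myotubes in orange, with distance counted in the direction of the gene. Tmem8c, Cav3 and Dysf show myotube peaks just downstream of the TSS, Dysf also at its upstream promoter, and Cdh15 shows peaks in both cell types, its H3K27ac higher in myoblasts.

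Few reads of the repressive mark H3K27me3 lay at these promoters, whose median myoblast level was 1.002-fold, against 0.911-fold over all promoters. At most 12 reads lay within 1 kb of any TSS in either library, so 0 of the 8 promoters reached the minimum of reads, and none could be called, where 6.51% of 3411 promoters were higher and 10.6% lower in myotubes. The highest level was at Cav3, with 12 reads in myoblasts (2.19-fold, 1.13 to 3.82) and 0 in myotubes, where the exact interval reached 0.940-fold. Cav3 was the only promoter of the 8 with a myoblast level above the genome mean, as were 18.2% of all promoters. Over the gene bodies H3K27me3 was highest along Dysf in myoblasts, at 1.92-fold (1006 reads) against 2.19-fold (820 reads) in myotubes, a ratio of 0.967 (0.881 to 1.06). Over the Cav3 body it was 1.71-fold (58 reads) and 2.43-fold (59 reads), a ratio of 1.21 (0.826 to 1.76). Both bodies thus stayed above the genome mean in H3K27me3 in myotubes, where their promoters carried H3K4me3. This was not particular to them, since 4 of the 8 bodies were above the mean in myotubes, Cdh15 among them (1.55-fold, 1.17 to 2.01). The median over all gene bodies in myotubes was 1.08-fold, itself above the genome mean. The share of all bodies with an interval above the mean is not given here.

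H3K36me3 over the gene body was higher in myotubes in 3 of the 8 genes, Tmem8c, Cav3 and Dysf, and lower in 0, against 7.39% and 7.26% of 15401 genes. These were the same 3 genes as for H3K4me3. Dysf went from 576 reads (1.099-fold) to 3933 (12.2-fold), a ratio of 10.9 (10.0 to 11.9). Cav3 went from 11 reads (0.323-fold) to 139 (6.66-fold), a ratio of 18.7 (11.0 to 41.4). Tmem8c went from 105 reads (4.001-fold) to 244 (15.2-fold), a ratio of 3.70 (2.95 to 4.72). Of these 3 bodies, that of Cav3 lay below the genome mean in myoblasts, that of Dysf just above it and that of Tmem8c further above. Cdh15 had the highest myoblast level, 16.1-fold, above that of 98.9% of genes, and kept 15.8-fold in myotubes (ratio 0.964, 0.859 to 1.08). Myof held 10.6-fold (4197 reads) and 7.81-fold (1891 reads), a ratio of 0.721 (0.682 to 0.761) whose interval lay below 1 without reaching the call. Cdon (4.48-fold and 4.26-fold), Cdh2 (1.83-fold and 2.71-fold) and Ncam1 (2.63-fold and 3.97-fold) were not called.

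The body was also divided into 4 equal stretches from 5' to 3'. Along Dysf the myoblast level stayed between 1.02-fold and 1.25-fold, and the myotube level was 8.16-fold in the first stretch and 12.5-fold to 14.2-fold in the others. Along Cdh15 the first stretch went from 12.8-fold (162 reads) to 4.63-fold (36 reads, ratio 0.363), while the last one was 24.2-fold and 26.1-fold. Ncam1 differed most in its last stretch, at 4.19-fold in myoblasts and 8.29-fold in myotubes (ratio 1.94), and little in its first (1.86-fold and 1.89-fold). Averages over a whole body therefore concealed unequal stretches in Cdh15 and Ncam1.

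**Figure D4:**
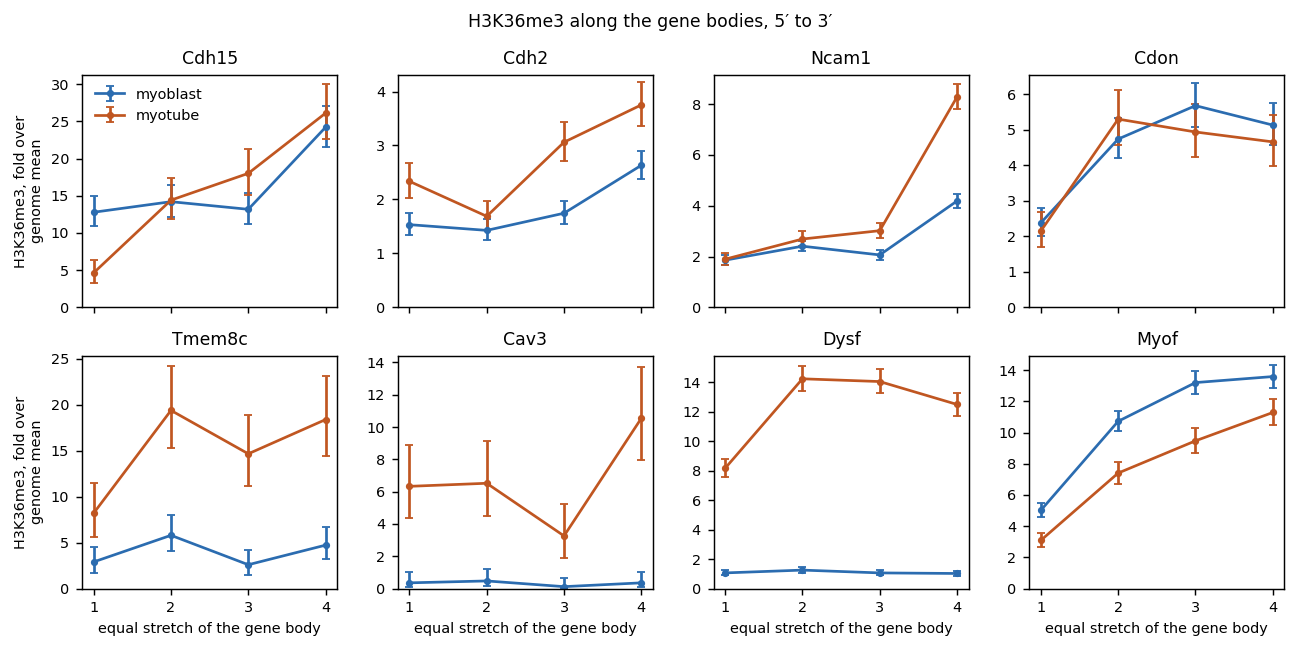
H3K36me3 level in each of 4 equal stretches of the gene body (1 is nearest the TSS) as fold over the genome mean, with exact 95% Poisson intervals, myoblasts in blue and myotubes in orange. Myotubes lie above myoblasts in every stretch of Tmem8c, Cav3 and Dysf, below in every stretch of Myof, and below in the first stretch of Cdh15. In Cdon the intervals of both overlap in every stretch. The vertical axes differ between genes.

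Related genes, 4 pairs in all, were compared by the ratio of their ratios, with exact conditional intervals, in which the scaling of the libraries cancels. The H3K4me3 ratio of Dysf was 16.2 times that of Myof (6.19 to 53.8), and its H3K36me3 ratio 15.2 times (13.7 to 16.8). Their H3K27ac ratios differed less, by 3.97 times (1.31 to 16.2), and those of H3K4me2 not beyond counting error (1.23, 0.759 to 2.00). The paired ferlins thus parted most in H3K4me3 and H3K36me3. Cdh2 and Cdh15 did not differ beyond counting error in H3K4me3 (0.636, 0.361 to 1.12) or H3K27ac (1.33, 0.784 to 2.30), and the H3K36me3 ratio of Cdh2 was 1.51 times that of Cdh15 (1.30 to 1.74). Ncam1 against Cdh15 gave 0.838 (0.537 to 1.31) for H3K4me3 and 1.66 (1.14 to 2.42) for H3K27ac. The H3K27ac ratio of Cav3 was 6.00 times that of Tmem8c (1.68 to 32.6), and its H3K36me3 ratio 5.42 times (2.79 to 11.6).

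Outside the promoters, 98 elements from the H3K27ac peak lists lay in the genes or within 10 kb of them and over 1 kb from their TSSs. Of these, 12 came from the myoblast list only, 19 from both and 67 from the myotube list only, and the myotube library was the deeper one. The elements were chosen by their H3K27ac peaks, so their acetylation is given as a description, with ratios centred on all distal elements. Of 44 with enough reads, 23 were higher in myotubes and 5 lower, beside 31.3% and 29.9% of 19774 distal elements genome-wide chosen in the same way. All 4 tested elements of Tmem8c, both of Cav3, 5 of 6 of Dysf and 5 of 6 of Cdh2 were higher. The 5 lower ones were 2 of the 10 tested in Ncam1 and 3 of the 14 tested in Myof.

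The Dysf element 2.87 kb downstream of the chosen TSS, printed above, had 2 H3K27ac reads in myoblasts (1.08-fold) and 268 in myotubes (56.9-fold), a ratio of 23.4 (9.58 to 290.1). H3K4me2, which was not used to choose the elements, went there from 1.64-fold to 41.4-fold and H3K4me1 from 3.41-fold to 12.6-fold. The Tmem8c element 3.45 kb upstream had 2 H3K27ac reads in myoblasts (1.98-fold) and 88 in myotubes (34.3-fold), a ratio of 7.74 (3.08 to 96.3). There H3K4me2 went from 0.859-fold to 19.001-fold and H3K4me1 from 4.84-fold to 16.8-fold. Both elements thus had little H3K27ac or H3K4me2 in the myoblast library. That of Tmem8c lies 3.75 kb from the TSS of Adamtsl2, the neighbouring gene, about as far as from its own.

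The leading elements of Cdh2, Ncam1 and Myof were intronic and acetylated in both cell types. At Cdh2 the element 68.7 kb into the gene had 11.4-fold in myoblasts (30 reads) and 49.6-fold in myotubes (331 reads), a ratio of 2.79 (1.98 to 4.33). At Myof, 88.2 kb in, levels were 24.5-fold and 58.5-fold (ratio 1.55, 1.16 to 2.19), and at Ncam1, 135 kb in, 22.4-fold and 38.5-fold (ratio 1.12, 0.809 to 1.63). The leading Cav3 element, 3.85 kb in, went from 2.01-fold (2 reads) to 19.3-fold (49 reads, ratio 4.35, 1.68 to 54.3). That of Cdon, 52.9 kb in, was 8.86-fold (7 reads) and 14.4-fold (29 reads), and the single one of Cdh15, 6.75 kb in, 12.3-fold (6 reads) and 2.41-fold (3 reads), too few for a ratio.

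**Figure D5:**
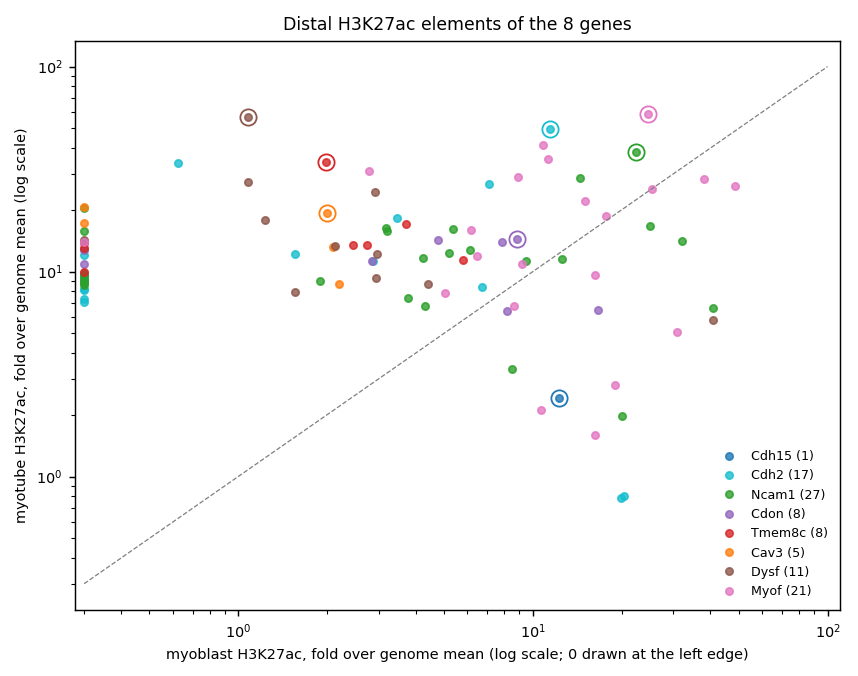
H3K27ac level of each distal element of the 8 genes in myoblasts (horizontal, log axis) and myotubes (vertical, log axis), as fold over the genome mean, with the leading element of each gene ringed and the number of elements in brackets. Points at the left edge had no myoblast read, and the dashed line marks equal levels. The ringed Dysf, Tmem8c and Cav3 elements lie near 1 to 2 in myoblasts and at 19.3 to 56.9 in myotubes, and that of Cdh15 lies below the line.

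In the deposited H3K4me3 peak lists, 6 of the 8 genes had a peak within 1 kb of the TSS in myoblasts and 8 in myotubes, against 48.8% and 48.9% of all promoters. For H3K4me2 it was 7 and 8, against 56.9% and 53.1%. For H3K27ac the lists read literally gave 0 in myoblasts and 8 in myotubes, and for H3K27me3 6 in myoblasts and 0 in myotubes. In the myoblast libraries, the list deposited with H3K27me3 held H3K27ac reads at 36.4 times the mean and H3K27me3 reads at 0.804 times, and the list deposited with H3K27ac held H3K27me3 reads at 6.76 times. With these 2 lists exchanged, H3K27ac peaks lay at 6 of the 8 promoters in myoblasts and H3K27me3 peaks at 0, against 46.2% and 5.06% of all promoters (42.4% for myotube H3K27ac and 1.41% for myotube H3K27me3), so the exchanged lists were used for the distal elements.

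Other genes of adhesion, fusion and membrane repair were read from a list of 49 symbols, 48 of them annotated. H3K27ac at the TSS was higher in myotubes for 8 and lower for 8 of 38 tested (21.1% each), against 14.5% and 13.0% of all promoters. H3K36me3 over the body was higher for 4 and lower for 7 of 46 tested (8.70% and 15.2%), against 7.39% and 7.26% of all genes. H3K4me3 at the TSS was higher for 5 and lower for 3 of 39 (12.8% and 7.69%), against 4.68% and 4.57% of all promoters. Calls in the list went in both directions, as they did among all genes, so this is not a trait of the list. The highest H3K27ac ratios were those of Capn3, the muscle calpain (0.688-fold to 12.2-fold, ratio 15.9), Trim72, a membrane repair protein (8.94-fold to 76.6-fold, 13.99), and Gm7325, the locus of the fusion micropeptide myomixer (8.25-fold to 48.4-fold, 9.55). The lowest were Dock1, a Rac activator of fusion (24.8-fold to 1.89-fold, 0.149), Prkcdbp, a cavin (111-fold to 17.04-fold, 0.271), and Kirrel, an adhesion molecule (30.3-fold to 6.49-fold, 0.383). For H3K36me3 the highest were Trim72 (ratio 10.1), Capn3 (3.18) and Cdh13 (2.44) and the lowest Vcam1 (0.173), Anxa1 (0.267) and Cav1 (0.342), the last being the caveolin of most other tissues. Cav1 fell from 2.04-fold to 0.697-fold in H3K36me3, the direction opposite to Cav3.

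The genes most like each of the 8 were found by Euclidean distance over 16 log2 levels, those of the 6 marks at the TSS and of H3K36me3 and H3K27me3 over the body in both cell types, among 18880 genes. Nearest to Tmem8c were Chrng (distance 2.07), Trim72 (2.32) and Nrap (2.33), against a median distance of 7.53 over all genes. Nearest to Cav3 were Myh1 (3.09), Lmod2 (3.11) and Casq2 (3.27), and nearest to Dysf were Slc2a6 (2.10), Grhl3 (2.36) and Myom3 (2.61). Cdh15 lay nearest to Slc44a2, Kat5 and Tpcn1 (1.54 to 1.64), Cdh2 to Ndfip2, Arntl and Braf (1.58 to 1.66), and Ncam1 to Nrip1, Ankrd11 and Setd3 (1.39 to 1.48). Myof lay nearest to Zc3h11a, C78339 and Scaf1 (1.25 to 1.58) and Cdon to Gnb1, Stk24 and 2010305A19Rik (1.24 to 1.31). Among the 8 genes themselves, Tmem8c and Dysf were nearest to each other (3.37), Myof and Cdon likewise (2.95), and Cav3 was the farthest for 6 of the other genes, at 11.0 from Cdh15. For Dysf the farthest was Cdh15 (7.30).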

How the data were processed

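ChIP-seq libraries of 6 histone marks in C2C12 myoblasts and myotubes were analysed, 1 per mark and cell type. The deposited read files hold 1 line per aligned read, a count of 1 each. The authors aligned reads of the myoblast libraries to mm9 with Mosaik, kept unique alignments and called peaks with MACS. The settings of MACS, the alignment of the myotube libraries, what was merged into each file and any removal of duplicates are not given in the sources used here. The deposited peak lists give the MACS score of each peak, 50 at the lowest. Reads on chromosomes 1 to 19 and X were extended to 150 bp, below the library fragments of 250 bp that include adaptors and 15 PCR cycles, and their midpoints were counted. Reads that share position and strand were kept (0.417% to 3.14% per library). PCR copies have no molecular identifiers, so intervals cover counting error only.

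For each gene of the GENCODE annotation of mm9, the annotated start richest in H3K4me3 over both libraries was used, a choice that itself reads H3K4me3. Ratios were scaled by total reads and centred on the median of all genes. Python 3.11.15, numpy 2.4.6, pandas 2.3.3, scipy 1.17.1 and pysam 0.24.0 were used, and the ratio calls were tested on simulated data. The 8 genes, the gene pairs, the pathway list and the marker lists were chosen with earlier results of these data known. Named genes are the 8, the 3 highest and 3 lowest list genes by ratio for H3K27ac and H3K36me3, the 3 nearest genes of each and the distal element richest in H3K27ac. Alternatives changed the window, extension, duplicates, TSS, scaling, reads added, minimum of reads and depth. With 1 library a group, no sample could be left out.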

Additional observations from a re-analysis of the deposited data

How the results depend on the processing

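No paired analysis was possible because each mark has 1 library per cell type, with no replicate numbers. Of 16 called ratios, those at promoters and those of H3K36me3 over gene bodies, recomputed 170 times under the alternatives, 169 kept their direction and 159 stayed past 2-fold. The count of genes with H3K4me3 above the mean was 6 or 7 in myoblasts and 8 in myotubes throughout, and the H3K4me3 and H3K36me3 calls stayed at 3 higher and 0 lower. H3K4me2 depended most on scaling: 2 higher by total reads only (Dysf 1.64, Myof 1.33), and 1 higher with 3 lower (Cdh15 0.389, Cdh2 0.331, Ncam1 0.331) by 10 kb windows outside peaks, where Myof turned to 0.854 and Tmem8c was 1.99. The H3K27ac calls stayed at 4 higher, with 1 lower (Cdon, 0.409 and 0.405) under those scalings. Promoter H3K4me1 was 1 higher within 500 bp, by windows outside peaks and with thinned libraries, the last with 1 lower (Cdh15, 0.395), and 3 higher with reads extended to 250 bp (Myof, 2.22) and at the first annotated TSS, where Myof was just called. Without a minimum of reads, H3K27me3 was lower at 4 promoters, on at most 12 reads each. Dysf H3K4me2 was 1.17 at the upstream TSS. Of peak counts, exchanging the myoblast lists gave 6 for H3K27ac and 0 for H3K27me3. Asking for peaks over 50% of the window gave 0 for myotube H3K4me1 and 0 for myoblast H3K36me3. It gave 3 for the list deposited with myoblast H3K27me3, not exchanged, which is the list rich in H3K27ac reads. A score of at least 100 gave 0 for myoblast H3K36me3. The alternatives for the other 5 marks over gene bodies were chosen after seeing the data: of their 15 called ratios, recomputed 150 times, 150 kept their direction and 140 stayed past 2-fold. Scaled by windows outside peaks, body H3K4me1 was 1 higher and 1 lower (Cdh15, 0.457), with the calls of Ncam1 (1.915) and Dysf (1.752) lost. The Cdh15 decrease in body H3K27ac, leaving 0 lower, was lost over the whole gene (0.614), with 5 reads added and with no minimum of reads (0.540 each), and its increase in H3K27me3, leaving 0 higher, with reads not extended (1.99), over the whole gene (1.85) and with 5 reads added (1.93). The causes were not tested.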
